A study of Arabidopsis thaliana with 18 samples.

Results

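The 2 transgenic lines of Arabidopsis thaliana compared here were set against each other, one that overexpresses RTL1 with a Myc tag (35S-RTL1-Myc, n = 2 libraries) and one that overexpresses RTL2 (35S-RTL2, n = 3 libraries). The libraries were chosen by their titles, which name both constructs in the Col-0 accession, and they are 5 of the 18 libraries of the series. Both lines carry wild-type DCL genes, and in both the transgene is driven by the viral 35S promoter, which is active in most plant tissues. The labels give the Myc tag for RTL1 only, so the tag differs between the groups along with the gene. Messenger RNA was sequenced from whole plants harvested on day 11 after germination from in vitro culture at 22 °C, where days had 18 h of light and nights 6 h. The other 13 libraries, which are the RTL2 mutant rtl2-1, the dcl234 triple mutant alone or with 35S-RTL2 or a truncated DCL1, and wild-type Col-0, entered the estimate of spread and serve here to give levels. Whether replicates came from separate cultures or from separate transformed lines, and the hour of harvest, are not stated in the labels, so p-values measure the spread between these libraries, which may be technical.

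RNase III enzymes cut double-stranded RNA. In plants the Dicer-like (DCL) proteins belong to this family and cut precursors into microRNAs and small interfering RNAs (siRNAs), which Argonaute proteins then use to silence matching transcripts or to direct DNA methylation. The RNASE THREE-LIKE (RTL) proteins are smaller relatives. Overexpressed RTL1 is known to destroy double-stranded precursors of siRNAs before the DCL proteins act, and RTL2 is known for a role in the processing of ribosomal RNA precursors and of some siRNA precursors. No small RNA was measured in these libraries, so every value below is the level of a long transcript.

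Levels are counts relative to library size (CPM), scaled between libraries by the TMM method, and they are not corrected for transcript length. They are therefore compared only within a row of the table, never between genes. Rows with an adjusted p under 0.05 in edgeR's quasi-likelihood test, after Benjamini-Hochberg adjustment over the whole table, are said to be called, and fold changes are log2 of 35S-RTL1-Myc over 35S-RTL2 with their standard error (SE). Where a row of the deposited tables joins overlapping genes, all its genes are named with a slash, and its change cannot be given to a single one of them. Total counts were 27411217 and 28688070 in the 35S-RTL1-Myc libraries and 20775728, 28414982 and 24934542 in the 35S-RTL2 libraries. On log2 CPM the 35S-RTL1-Myc libraries correlated at r = 0.987 across rows and the 35S-RTL2 pairs at 0.984 to 0.989. The first principal component of the 5 libraries held 74.7% of the variance and separated the constructs.

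The overexpressed genes matched the titles in every library. RTL1 stood at 1580 and 1530 CPM in 35S-RTL1-Myc plants, against 0.144, 0.464 and 0.366 CPM in 35S-RTL2 plants. The Col-0 libraries held 0.167 to 0.565 CPM of RTL1, so its transcript was close to the lower limit of counting wherever the construct was absent. The log2 fold change of RTL1 was 12.14 (SE 0.51, adjusted p = 4.33e-09). RTL2 stood at 2.57 and 4.05 CPM in 35S-RTL1-Myc plants, against 539, 618 and 515 CPM in 35S-RTL2 plants, a log2 fold change of -7.39 (SE 0.24, adjusted p = 1.54e-10). Its level in the 35S-RTL1-Myc libraries lay around the 2.89 to 2.98 CPM of Col-0. Reads of the transgene and of the native gene cannot be told apart in these counts. RTL3, the third member of the family, was called higher, with 4.05 and 3.95 CPM in 35S-RTL1-Myc plants and 1.35, 2.07 and 2.32 CPM in 35S-RTL2 plants (log2 1.05, SE 0.22, adjusted p = 0.00212).

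**Figure D1:**
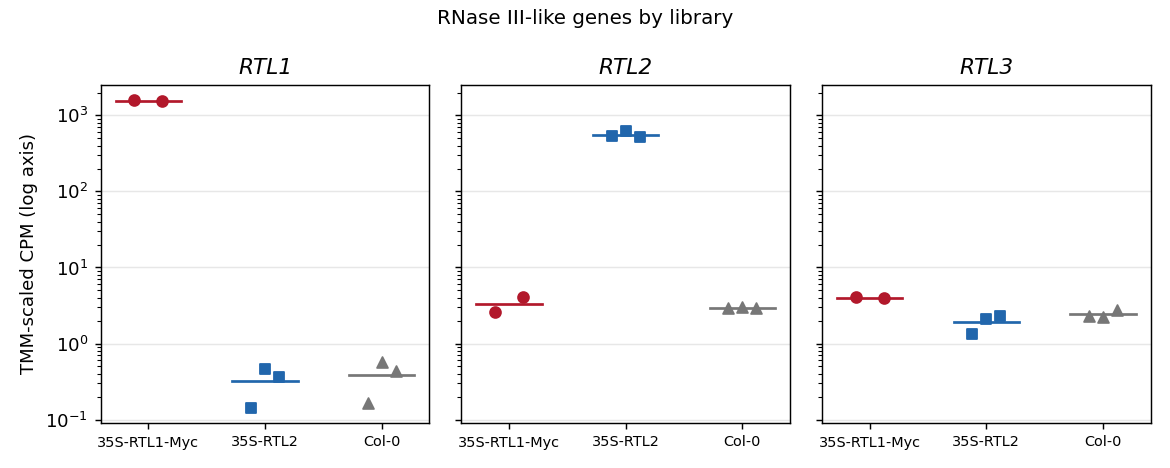
Level of the RNase III-like genes RTL1, RTL2 and RTL3 in each library, as TMM-scaled CPM on a log axis, for 35S-RTL1-Myc (2 libraries), 35S-RTL2 (3) and Col-0 (3). Points are libraries and bars are group means: RTL1 stands at 1580 and 1530 CPM with its own construct, RTL2 at 515 to 618 CPM with its own, and RTL3 lies between 1.35 and 4.05 CPM.

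The tissue named in the labels was checked against marker genes. Several of the 15 root genes were nearly missing, while others were not. RHD6, a root hair regulator, had 0 counts in all 5 libraries. EXPA7, EXPA18, PLT1, PLT2, WOX5 and MYB36 did not pass 0.0481 CPM in any of them. Floral organ genes were plentiful in every library, and their summed level over 8 rows was 824 and 882 CPM in 35S-RTL1-Myc plants and 829, 887 and 943 CPM in 35S-RTL2 plants. AP3, a petal and stamen identity gene, had 109 and 130 CPM with RTL1-Myc and 115, 132 and 140 CPM with RTL2. Of the 8 floral rows, 0 were called by edgeR, against 33.6% of all rows tested. Of these floral rows 0 had an unadjusted p below 0.05 and DESeq2 called 0. The 15 root genes summed to 114 and 116 CPM in 35S-RTL1-Myc plants and to 110, 109 and 107 CPM in 35S-RTL2 plants. Nearly all of each sum came from list members other than the nearly missing genes. Of the 8 root rows tested, COBL9 (log2 -2.27) and NRT2.1 (log2 -4.18) were called lower, both at most 1.25 CPM in all 5 libraries. That share, 25.0%, is below the 33.6% of all rows. The call of COBL9 ended without 35S-RTL1-Myc replicate 2 (log2 -2.11, edgeR adjusted p = 0.0578). That of NRT2.1, which rests on 1 count in the 35S-RTL1-Myc libraries and 29 in the 35S-RTL2 libraries, ended without each library except 35S-RTL2 replicate 3 (log2 -3.29 to -6.4). Stomatal lineage genes summed to 58.7 and 45.5 CPM with RTL1-Myc and to 55.1, 60.1 and 61.6 CPM with RTL2. Of 6 such rows only MYB60, a guard cell factor, was called, at log2 -1.11, and this share of 16.7% is also below that of all rows. In whole plants, fewer cells of a type and less RNA per cell cannot be told apart.

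The transcriptomes of the 2 overexpressors differed widely. Of 21343 rows tested, 33.6% were called, with 3617 rows higher in 35S-RTL1-Myc plants (16.9% of those tested) and 3564 rows lower (16.7%). The median log2 fold change over all rows was -0.006 after TMM scaling, which centres most rows near 0, so a shift of the whole transcriptome could not be seen in these values. Changes of at least 2-fold were fewer, 1178 higher and 1662 lower, and changes of at least 16-fold numbered 98 higher and 157 lower. Of the rows called, 3334 were called in each of the 5 fits that left out 1 of these libraries, 1797 of them higher and 1537 lower. Without 35S-RTL1-Myc replicate 1 the fit called 2525 higher and 2160 lower, and without replicate 2 it called 2465 higher and 2199 lower.

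Wild-type Col-0 gives a level to read the pair against. The mean log2 level of Col-0 lay nearer to 35S-RTL2 than to 35S-RTL1-Myc in 3435 of the 3617 rows called higher (95.0%) and in 3379 of the 3564 called lower (94.8%). Among rows with a difference of at least 16-fold, this held for 98 of 98 higher rows and for 152 of 157 lower rows. These shares describe distances between group means and were not tested.

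**Figure D2:**
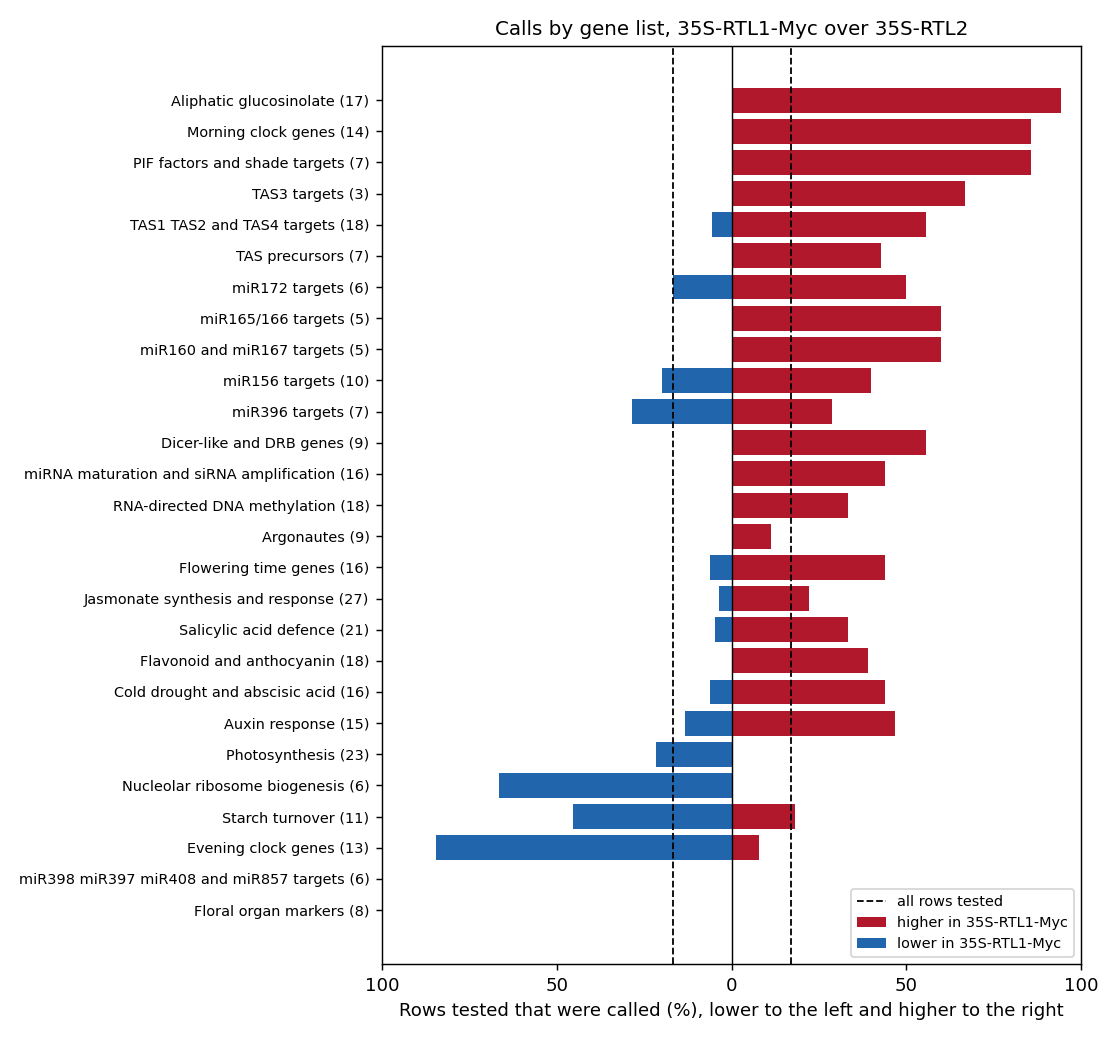
Percent of the rows tested in each gene list that were called higher (right) or lower (left) in 35S-RTL1-Myc than in 35S-RTL2 plants, with the number of rows tested in brackets. Dashed lines mark the shares over all rows, 16.9% higher and 16.7% lower; aliphatic glucosinolate genes (16 of 17) and morning clock genes (12 of 14) lie far to the right, evening clock genes (11 of 13) far to the left, and floral organ genes at 0.

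Aliphatic glucosinolates are sulfur-rich defence compounds of the cabbage family, built from chain-elongated methionine. Genes of their synthesis were higher in 35S-RTL1-Myc plants almost throughout. Of 17 rows tested, 16 were called higher and 0 lower, with a median log2 fold change of 3.41 against -0.006 over all rows. The share called was 94.1%, against 33.6% of all rows. The list was chosen with earlier results of these data known, so its count is a description.

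MYB28, MYB29 and MYB76 are the transcription factors that switch on aliphatic glucosinolate synthesis. MYB28 stood at 60.7 and 74.8 CPM in 35S-RTL1-Myc plants, against 13.4, 10.4 and 18.7 CPM in 35S-RTL2 plants (log2 2.26, SE 0.29, adjusted p = 4.87e-05). MYB29 stood at 29.0 and 49.4 CPM with RTL1-Myc and at 0.289, 0.25 and 0.528 CPM with RTL2 (log2 6.77, SE 0.42, adjusted p = 1.13e-07). MYB29 ranked behind RTL1 and DDF1 among the rises named by size, and its level in Col-0 was 0.64 to 1.08 CPM. MYB76 had 22 counts in the 35S-RTL1-Myc libraries together and 0 in the 35S-RTL2 libraries, which makes it at least 9.44-fold higher, taking 3 counts over the group as the floor. It fell below the filter on low counts without 35S-RTL1-Myc replicate 2.

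Enzymes of chain elongation and of the core structure were higher as well. MAM1, which condenses the first elongation step, stood at 72.2 and 161 CPM in 35S-RTL1-Myc plants, against 2.41, 1.64 and 3.98 CPM in 35S-RTL2 plants (log2 5.45, SE 0.54, adjusted p = 5.75e-06). Its value was log2 4.77 without 35S-RTL1-Myc replicate 2. The row BCAT4/IKU2, in which BCAT4 is the aminotransferase that starts elongation, was higher by log2 5.32, and IIL1, a subunit of the isomerase, by log2 0.62. CYP79F1, which makes the aldoxime from elongated methionine, stood at 63.1 and 100 CPM with RTL1-Myc and at 0.625, 0.786 and 1.95 CPM with RTL2 (log2 6.17, SE 0.66, adjusted p = 9.84e-06). No library of one construct reached the range of the other for any of these rows. The same held for 7134 of all 7181 rows called, so it does not set these rows apart. Its close copy CYP79F2 differed by log2 1.21, and that call ended in each of the 5 fits that left out a library, with values of 0.85 without 35S-RTL1-Myc replicate 1 to 1.51 without replicate 2. MAM3, a relative of MAM1, was the only row of the list not called, at 0.29 and 0.34 CPM with RTL1-Myc and 0.625, 0.715 and 0.406 CPM with RTL2. MAM1 and MAM3, and likewise CYP79F1 and CYP79F2, are similar in sequence, and how the counting split reads between such copies is not given in the sources used here.

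Later steps were higher too. CYP83A1, the oxidase after CYP79F1, stood at 248 and 276 CPM in 35S-RTL1-Myc plants, against 14.5, 7.86 and 17.9 CPM in 35S-RTL2 plants (log2 4.29). The glutathione transferases GSTF11 and GSTU20 were higher by log2 6.06 and 3.41, the C-S lyase SUR1 by 1.72, and the sulfotransferases SOT17 and SOT18 by 2.66 and 1.35. The row AT2G31800/AT2G31790 was higher by 0.54. FMO GS-OX1, which oxidises the side chain, stood at 16.8 and 20.8 CPM with RTL1-Myc and at 0.144, 0.143 and 0.61 CPM with RTL2 (log2 5.95). Among the RTL2 libraries replicate 3 was the highest for CYP79F1, GSTF11 and FMO GS-OX1, and without it their values were log2 6.82, 6.92 and 6.98. A related oxidase outside the list, FMO GS-OX3, was among the largest rises, with 62.6 and 67.3 CPM in 35S-RTL1-Myc plants and 0.818, 0.679 and 2.11 CPM in 35S-RTL2 plants (log2 5.75, and 6.44 without 35S-RTL2 replicate 3).

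Indole glucosinolates are made from tryptophan. Of 9 rows of their list, 2 were called higher and 1 lower, with a median log2 fold change of 0.42. These calls are 33.3% of the list, near the 33.6% of all rows. MYB34, a regulator of the indole branch, stood at 6.19 and 6.36 CPM in 35S-RTL1-Myc plants, against 0.77, 1.04 and 1.38 CPM in 35S-RTL2 plants (log2 2.55, SE 0.27). CYP79B3, which makes the aldoxime of this branch, was higher by log2 1.28, and its copy CYP79B2 was not called at 0.42. CYP81F2, which modifies the indole ring, was lower at log2 -1.81 (adjusted p = 0.0426). That call ended without 35S-RTL2 replicate 1 and without either 35S-RTL1-Myc library (log2 -1.22, -1.86 and -1.74), and the call of CYP79B3 ended without 35S-RTL1-Myc replicate 1 (log2 1, adjusted p = 0.0646). Of 11 sulfur starvation rows only LSU1 was called, which at 9.09% is below the share of all rows. LSU1 stood at 5.21 and 8.1 CPM with RTL1-Myc and 1.54, 1.43 and 1.79 CPM with RTL2 (log2 2.07). It stood at log2 1.73 with the call lost without 35S-RTL1-Myc replicate 2.

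**Figure D3:**
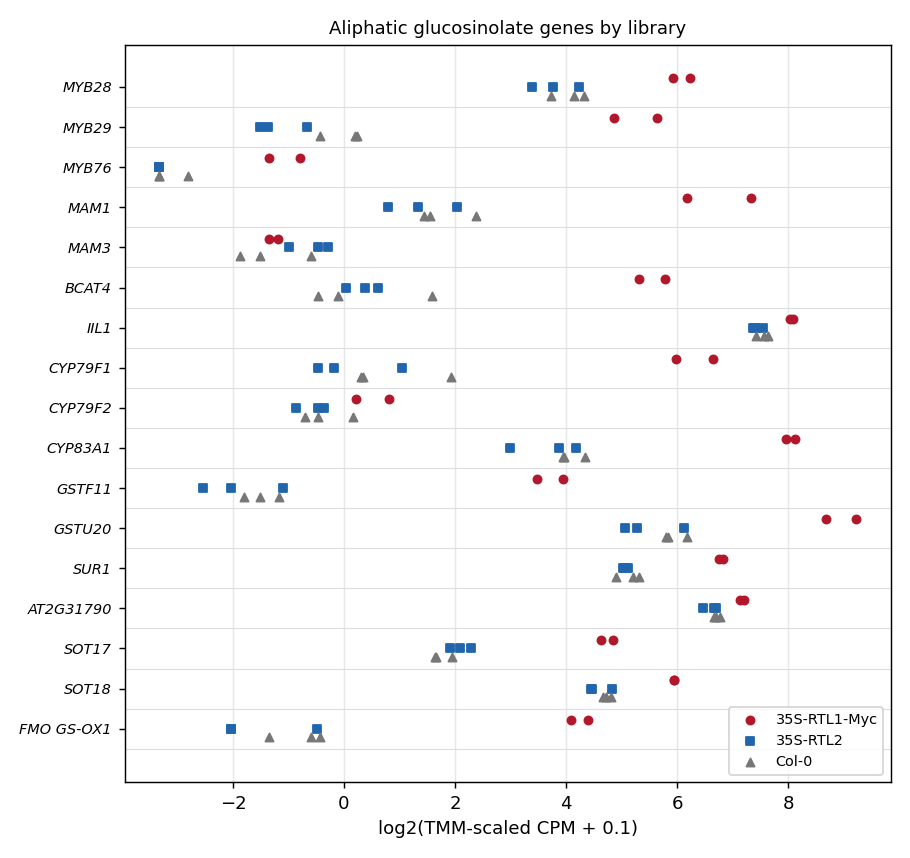
Aliphatic glucosinolate genes by library, as log2(TMM-scaled CPM + 0.1), for 35S-RTL1-Myc (circles), 35S-RTL2 (squares) and Col-0 (triangles). The 35S-RTL1-Myc libraries lie to the right of both other groups in 16 of 17 rows, most widely for MYB29 and CYP79F1, while MAM3 does not.

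The circadian clock of plants is a loop of transcription factors that peak at set times of day. CCA1 and LHY peak around dawn and repress the evening genes, PRR proteins repress CCA1 and LHY through the day, and LUX, ELF3 and ELF4 form a complex that acts at dusk. In 35S-RTL1-Myc plants morning genes were higher and evening genes lower than in 35S-RTL2 plants. Of 14 morning rows, 12 were called higher and 0 lower, with a median log2 fold change of 2.30. Of 13 evening rows, 11 were called lower and 1 higher, with a median of -1.84. The shares called were 85.7% of morning rows and 92.3% of evening rows, against 33.6% of all rows. The labels do not give the hour of harvest, so the construct and the hour cannot be told apart.

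Among morning genes, LHY stood at 149 and 104 CPM in 35S-RTL1-Myc plants, against 3.99, 4.39 and 3.17 CPM in 35S-RTL2 plants (log2 5.03, SE 0.27, adjusted p = 2.69e-08). CCA1 stood at 128 and 104 CPM with RTL1-Myc and at 8.37, 8.47 and 5.32 CPM with RTL2 (log2 3.97, SE 0.35). Both 35S-RTL1-Myc libraries were far above those of 35S-RTL2 and Col-0, and the Col-0 libraries held 3.41 to 4.52 CPM of LHY. The dcl234 library with truncated DCL1 lay between Col-0 and 35S-RTL1-Myc for the morning genes named by adjusted p. It held 26.1 CPM of LHY, 25.9 CPM of RVE8, 64.8 CPM of RVE4 and 114 CPM of LNK1. That difference was not tested. RVE8, an activator of evening genes, was higher by log2 4.65, and its relative RVE4 by 1.71. PRR9, the first PRR gene of the day, stood at 40.5 and 33.5 CPM in 35S-RTL1-Myc plants and at 4.23, 3.14 and 3.66 CPM in 35S-RTL2 plants (log2 3.33). The LNK genes, which encode coactivators that work with RVE8, were higher by log2 1.95 (LNK1), 2.90 (row LNK2/RPB5E), 2.74 (LNK3) and 2.66 (LNK4). RVE2 at log2 -0.41 and PRR7 at 0.11 were not called.

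The evening genes differed between the 35S-RTL1-Myc libraries as well as between the constructs. ELF4 stood at 1.12 and 25.8 CPM in 35S-RTL1-Myc plants, against 60.7, 76.2 and 87.5 CPM in 35S-RTL2 plants (log2 -2.47, SE 0.67, adjusted p = 0.0112). FKF1, a blue light receptor that promotes flowering, stood at 2.06 and 37.8 CPM with RTL1-Myc and at 98.8, 97.8 and 95.5 CPM with RTL2 (log2 -2.28). GRP7, a clock-controlled RNA-binding protein, stood at 182 and 2050 CPM with RTL1-Myc and at 4150, 5070 and 4870 CPM with RTL2 (log2 -2.07). In each case both 35S-RTL1-Myc libraries were below all 35S-RTL2 libraries, and replicate 1 was far below replicate 2. The ratio of replicate 2 to replicate 1 was 23.0 for ELF4, 18.3 for FKF1, 14.4 for PRR3 and 11.2 for GRP7, while the highest and lowest 35S-RTL2 libraries differed by a factor of 1.03 to 1.44 for the same genes. The morning genes called did not show this, with ratios of replicate 2 to replicate 1 of 0.699 for LHY and 0.814 for CCA1.

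The sizes of the evening differences therefore rest on which 35S-RTL1-Myc library is used. Without replicate 1 the log2 fold changes were -1.54 for ELF4, -1.36 for FKF1, -1.2 for GRP7, -1.18 for PRR5 and -1.8 for LUX. Without replicate 2 they were -6.04 for ELF4, -5.55 for FKF1, -4.68 for GRP7, -3.34 for PRR5 and -3.5 for LUX. BOA, a close relative of LUX, was lower with 1.99 and 5.58 CPM in 35S-RTL1-Myc plants and 23.5, 21.1 and 21.8 CPM in 35S-RTL2 plants (log2 -2.54, and -3.46 without replicate 2). The dcl234 library with truncated DCL1 was also below every Col-0 library for the evening genes named by adjusted p. It held 5.56 CPM of BOA, 17.9 CPM of LUX, 299 CPM of GRP8 and 100 CPM of GI. GRP8 and TOC1 were lower at log2 -1.84 and -1.42, and at -2.63 and -2.3 without replicate 2. GI, which works with FKF1, was lower at log2 -1.26 and the row ALPHA-VPE/ELF3 at -1.03. PRR3 was called at log2 -1.65, and stood at -4.59 without 35S-RTL1-Myc replicate 2 and at -0.75 without replicate 1. Its call ended when any 35S-RTL2 library was left out, with values of -1.52 to -1.74. ZTL, a relative of FKF1 whose protein marks TOC1 for degradation, was called higher by log2 0.51, and the row with LKP2 was not called.

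The deposited file names carry a number that differs within groups and is shared across them. 35S-RTL1-Myc replicate 2 shares its number with 35S-RTL2 replicate 3, and 35S-RTL1-Myc replicate 1 shares its number with 35S-RTL2 replicate 2. Within these pairs the median log2 difference was 2.39 and 2.29 for morning rows, -0.98 and -3.34 for evening rows and 2.93 and 2.54 for aliphatic glucosinolate rows, against -0.01 and 0.0 over all rows. Both pairs gave the direction of the whole comparison for these lists.

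**Figure D4:**
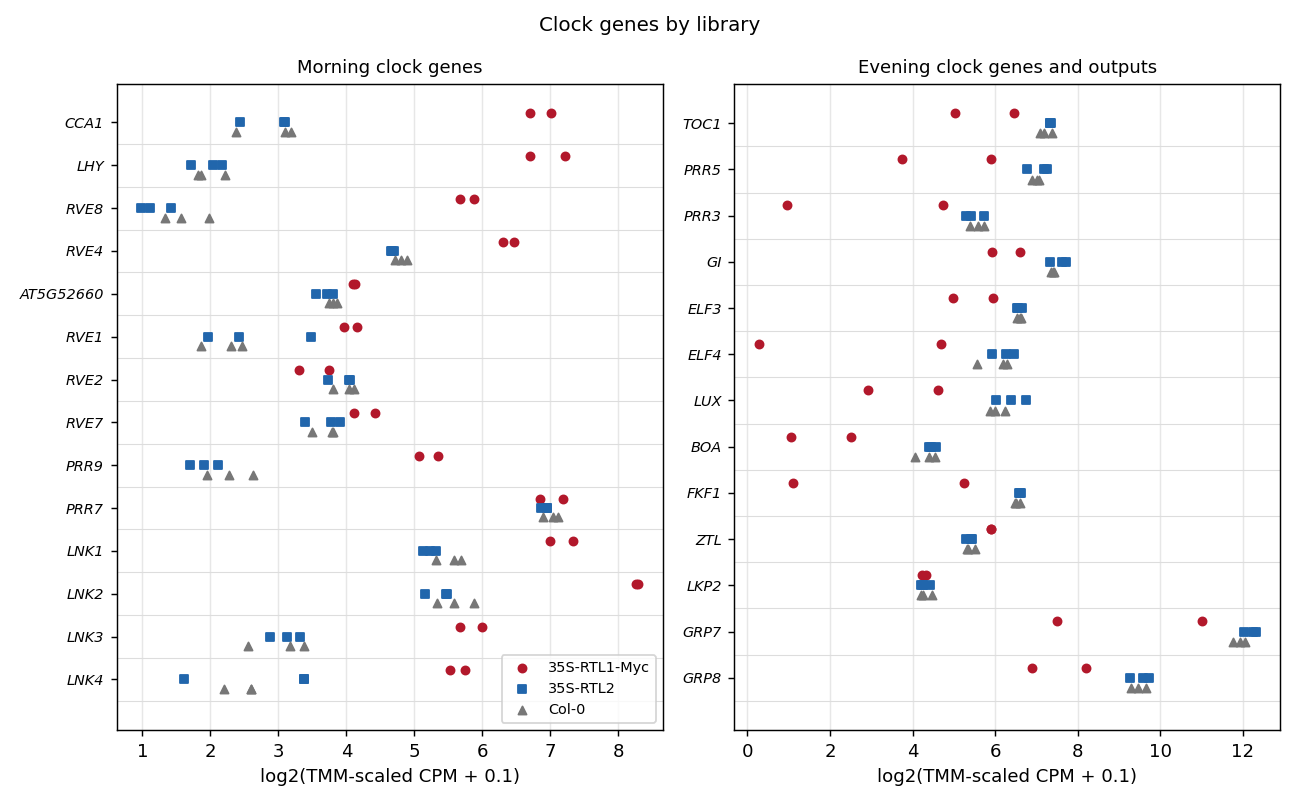
Clock genes by library, as log2(TMM-scaled CPM + 0.1), for 35S-RTL1-Myc (circles), 35S-RTL2 (squares) and Col-0 (triangles), with morning genes in the left panel and evening genes in the right panel. The 35S-RTL1-Myc libraries lie to the right for LHY, CCA1 and RVE8, and to the left, spread far apart, for ELF4, FKF1, PRR3 and GRP7, while Col-0 lies close to 35S-RTL2.

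The evening element, AAAATATCT, and the G-box, CACGTG, are short DNA motifs bound by clock factors of the RVE/CCA1 family and by bHLH or bZIP factors. They were looked up in the 250 bases before the start of each gene, on both strands, in the RefSeq TAIR10.1 table. Only tested rows with a single gene were used, so rows that join genes were left out. The evening element was found in 7 of the 11 evening genes with a row of their own, namely FKF1, GRP7, LUX, GRP8, PRR5, BOA and TOC1. It was found in 2.6% of all 19438 promoters looked up. It was present before 1.97% of genes called higher, 4.0% of genes called lower and 2.4% of genes not called. The G-box was found in 7 of 13 morning genes, against 7.02% of all promoters, and in 9.81% of genes called higher and 6.05% of genes called lower. The letters of the 2 motifs do not allow them to overlap, and a match describes the sequence and does not mark a bound site.

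Flowering time genes downstream of the clock and of vernalization differed in both directions. Of 16 rows, 7 were called higher and 1 lower, with a median log2 fold change of 0.16. The share called was 50.0%, against 33.6% of all rows. FT, the mobile signal that triggers flowering, stood at 6.33 and 5.48 CPM in 35S-RTL1-Myc plants, against 67.6, 63.1 and 33.0 CPM in 35S-RTL2 plants (log2 -3.21, SE 0.45, adjusted p = 1.04e-04). FLC, a repressor of FT, stood at 6.91 and 7.05 CPM with RTL1-Myc and at 1.25, 0.929 and 0.691 CPM with RTL2 (log2 2.87, SE 0.21, adjusted p = 3.62e-07). The groups did not overlap for either gene, as in nearly all rows called. Col-0 held 33.8 to 43.5 CPM of FT and 0.992 to 1.21 CPM of FLC. In dcl234 plants FLC averaged 3.04 CPM and FT 14.2 CPM. With 35S-RTL2 in dcl234, FLC stood at 7.55 to 8.88 CPM, above both 35S-RTL1-Myc libraries. The CDF genes, which encode daytime repressors of CO and FT that GI and FKF1 remove, were higher by log2 2.02 (CDF1), 1.44 (CDF2) and 2.37 (CDF3). SVP, another repressor of FT, was higher by log2 0.89, a call that ended without 35S-RTL1-Myc replicate 2 (log2 0.69, adjusted p = 0.0761). Without 35S-RTL2 replicate 3 the count of lower rows in this list was 4. CO at log2 -1.1 (adjusted p = 0.0661), TSF at -2.10 (adjusted p = 0.0636) and SOC1 at 0.08 were not called.

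PIF factors are growth regulators held in check by light and by the evening complex. Of 7 rows of this list, 6 were called higher, with a median log2 fold change of 0.76. The share called was 85.7%, against 33.6% of all rows. The shade marker genes PIL1, HFR1 and HAT4 were higher by log2 1.38, 1.28 and 0.94, and PIF3 by 0.76. PIF5 was higher by log2 0.62, and its call ended without each library except 35S-RTL2 replicate 1 (log2 0.47 to 0.64). The row PIF1/AT2G20170 was higher by log2 0.42. Its call ended without 35S-RTL2 replicate 1, 35S-RTL2 replicate 2 or 35S-RTL1-Myc replicate 2 (log2 0.39, 0.36 and 0.21). PIF4 stood at 13.7 and 26.8 CPM in 35S-RTL1-Myc plants and at 28.2, 26.6 and 28.6 CPM in 35S-RTL2 plants, and missed the threshold. It was the 1 row of the list called lower without 35S-RTL1-Myc replicate 2.

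Of 9 Dicer-like and DRB rows, 5 were called higher and 0 lower, with a median log2 fold change of 0.35. The share called was 55.6%, against 33.6% of all rows, and log2 fold changes in the list reached at most 0.49. DCL4, which makes trans-acting siRNAs, stood at 48.8 and 43.7 CPM in 35S-RTL1-Myc plants and at 38, 33.6 and 27.2 CPM in 35S-RTL2 plants (log2 0.49, adjusted p = 0.0168). Its partner DRB4 was higher by log2 0.39. The row AT3G43930/DCL3 was higher by log2 0.49, DRB5 by 0.42 and the row AT3G03305/DCL2 by 0.27. DCL1, the microRNA-making enzyme, lies in the row PPa1/MIR838/DCL1, at 150 and 142 CPM with RTL1-Myc and 144, 146 and 146 CPM with RTL2. The count of higher rows was 4 without 35S-RTL2 replicate 1, 3 without 35S-RTL2 replicate 3 or 35S-RTL1-Myc replicate 2, 2 without 35S-RTL2 replicate 2 and 0 without 35S-RTL1-Myc replicate 1. In the last of these fits DCL4 stood at log2 0.41 (adjusted p = 0.124) and DRB4 at 0.36 (adjusted p = 0.0517).

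Among Argonautes, AGO2 was the 1 row called of 9 tested, which at 11.1% is below the 33.6% of all rows. AGO2 takes up siRNAs in antiviral defence, and it stood at 70.5 and 67.2 CPM in 35S-RTL1-Myc plants and at 33.1, 29.7 and 26.0 CPM in 35S-RTL2 plants (log2 1.22, SE 0.14, adjusted p = 2.13e-05). AGO1, the main effector of microRNAs, was not called, with 376 and 370 CPM with RTL1-Myc and 354, 331 and 298 CPM with RTL2.

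In microRNA maturation and siRNA amplification 7 of 16 rows were called higher and 0 lower, with a median of 0.28. The share called was 43.8%, against 33.6% of all rows. SGS3 and RDR6, which make double-stranded RNA from cleaved transcripts, were higher by log2 0.65 and 0.45. RDR2, which does so for siRNAs of the nucleus, was higher by 0.73, and FRY1, a phosphatase that keeps the XRN exonucleases active, by 0.82. HEN1, DDL and XRN4 were higher by log2 0.34, 0.31 and 0.26. The call of HEN1 ended without 35S-RTL2 replicate 2 (log2 0.27) or 35S-RTL1-Myc replicate 1 (log2 0.28). That of DDL ended without 35S-RTL2 replicate 1 (log2 0.26) or 35S-RTL1-Myc replicate 2 (log2 0.22). XRN4 stood at log2 0.25 without 35S-RTL1-Myc replicate 1, where its call was lost.

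RNA-directed DNA methylation uses siRNAs to guide methylation to repeats. Of 18 rows, 6 were called higher and 0 lower, with a median log2 fold change of 0.17. The share called, 33.3%, is near the 33.6% of all rows. NRPD1, the largest subunit of the polymerase that makes siRNA precursors, stood at 25.8 and 18.0 CPM in 35S-RTL1-Myc plants and at 10.9, 9.5 and 6.38 CPM in 35S-RTL2 plants (log2 1.3, SE 0.24). CHR42, a chromatin remodeller of the CLASSY family, was higher by log2 1.32, MORC6 by 0.68 the methyltransferase DRM2 by 0.57. The count of lower rows was 1 without 35S-RTL2 replicate 3 or without 35S-RTL1-Myc replicate 1.

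ROS1, the DNA demethylase whose own promoter is kept active by methylation, was lower. It stood at 47.9 and 39.3 CPM in 35S-RTL1-Myc plants, against 110, 103 and 109 CPM in 35S-RTL2 plants (log2 -1.3, SE 0.13, adjusted p = 4.52e-06). Col-0 held 110 to 136 CPM of ROS1 and dcl234 plants averaged 27.3 CPM, so the dcl234 mean lay below both overexpressors. CMT3, a maintenance methyltransferase, was lower at log2 -0.50, a call that ended without 35S-RTL1-Myc replicate 2 (log2 -0.43), and the other 9 rows of that list were not called. SDC, an F-box gene normally silenced by methylation, stood at 2.39 and 2.82 CPM with RTL1-Myc and at 0.673, 0.572 and 0.366 CPM with RTL2 (log2 2.28, SE 0.41, adjusted p = 7.42e-04), and averaged 1.91 CPM in dcl234 plants. FWA, another gene silenced by methylation, was not called, at 0.651 and 0.374 CPM with RTL1-Myc and 1.92, 1.32 and 0.853 CPM with RTL2. QQS, an epiallele-prone gene, was low in both lines, at 0.724 and 1.23 CPM with RTL1-Myc and 1.73, 1.64 and 1.26 CPM with RTL2, against 9.62 to 12.2 CPM in Col-0.

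TAS genes encode non-coding transcripts that a microRNA cuts and that RDR6, SGS3 and DCL4 turn into trans-acting siRNAs. Of 7 TAS rows tested, 3 were called higher and 0 lower, with a median log2 fold change of 0.45. The share called was 42.9%, against 33.6% of all rows. TAS3 stood at 31.0 and 31.3 CPM in 35S-RTL1-Myc plants, against 7.98, 11.4 and 11.9 CPM in 35S-RTL2 plants (log2 1.58, SE 0.20, adjusted p = 4.41e-05). TAS2 stood at 33.2 and 38.8 CPM with RTL1-Myc and at 12.3, 16.8 and 16.7 CPM with RTL2 (log2 1.24), and the row TAS1C/AT2G39670 at 105 and 123 CPM with RTL1-Myc and 59.9, 58.7 and 80.2 CPM with RTL2 (log2 0.78). The groups did not overlap for these 3 rows, as in nearly all rows called. In dcl234 plants, which are mutated in DCL2, DCL3 and DCL4, the means were 16.9 CPM for TAS3, 53.4 CPM for TAS2 and 132 CPM for TAS1C/AT2G39670.

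The transcripts that trans-acting siRNAs target were higher in part. ARF3 and ARF4, auxin response factors cut by siRNAs of TAS3, were both called. ARF4 stood at 145 and 138 CPM in 35S-RTL1-Myc plants, against 50.5, 46.4 and 51.2 CPM in 35S-RTL2 plants (log2 1.52, SE 0.09, adjusted p = 5.77e-08). ARF3 stood at 90.8 and 93.5 CPM with RTL1-Myc and at 43.4, 35.8 and 45.4 CPM with RTL2 (log2 1.15). The dcl234 plants, at a mean of 115 CPM for ARF4 and 97.0 CPM for ARF3, lay near the 35S-RTL1-Myc libraries, and Col-0, at 43.3 to 48.3 CPM for ARF4, near the 35S-RTL2 libraries. ARF2, the remaining TAS3 target of the list, was not called, at 302 and 306 CPM with RTL1-Myc and 299, 299 and 253 CPM with RTL2.

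Of 18 rows with targets of TAS1, TAS2 and TAS4, 10 were called higher and 1 lower, with a median of 0.50. The share called was 61.1%, against 33.6% of all rows. HTT2, a heat tolerance gene targeted by TAS1 siRNAs, stood at 50.5 and 49.8 CPM in 35S-RTL1-Myc plants and at 22.0, 25.0 and 23.7 CPM in 35S-RTL2 plants (log2 1.09, SE 0.11). RPF2, a pentatricopeptide repeat protein that acts in the processing of mitochondrial RNA, was higher by log2 0.74, AT1G62910 by 0.61 and AT1G63130 by 0.54. Several genes of this list are close copies of each other, so counts may be shared between them. The 1 lower row, at log2 -0.85, joins UGE1, a sugar epimerase, with AT1G12775. Without 35S-RTL1-Myc replicate 1 or without 35S-RTL2 replicate 2 the count of higher rows was 6, and it was 8 without any other library.

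MicroRNA targets were examined by family. The miR172 family restrains AP2-like repressors of flowering, and it acts by cleavage and by blocking translation. The mature sequence of miR172a and its sites in the target transcripts are shown because 4 of these 6 rows were called, in different directions. Sequences are from RefSeq TAIR10.1, 5′ to 3′, with bases 2 to 8 of the microRNA (the seed) and the bases that face them in the sites in capitals.
miR172a: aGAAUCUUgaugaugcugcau
TOE2: augcagcaucaucAGGAUUCu
SNZ: uuguagcaucaucAGGAUUCc
TOE1: cagcagcaucaucAGGAUUCu
AP2: cugcagcaucaucAGGAUUCu
SMZ: uugcagcaucaucAGGAUUCc
TOE3: uggcagcaucaucAGGAUUCu

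All 6 sites carried the same bases opposite the seed, while the rows did not move together. Of 6 rows, 3 were called higher and 1 lower, with a median log2 fold change of 0.92. The share called was 66.7%, against 33.6% of all rows. TOE2 stood at 84.1 and 91.4 CPM in 35S-RTL1-Myc plants, against 23.1, 21.0 and 18.7 CPM in 35S-RTL2 plants (log2 2.07, SE 0.11, adjusted p = 2.69e-08). SNZ stood at 0.724 and 1.6 CPM with RTL1-Myc and at 0.144, 0.107 and 0.244 CPM with RTL2 (log2 2.79, and 2.12 without 35S-RTL1-Myc replicate 2). TOE1 was called at log2 1.36, a call that ended without 35S-RTL1-Myc replicate 2 (log2 0.94, adjusted p = 0.0741). AP2 itself was lower, with 37.6 and 42.4 CPM with RTL1-Myc and 79.9, 81.4 and 62.0 CPM with RTL2 (log2 -0.90, SE 0.16, adjusted p = 7.44e-04). SMZ at log2 0.48 and the row TOE3/AT5G67170 at -0.25 were not called. Without 35S-RTL2 replicate 3 the count of lower rows was 2. TOE2 averaged 23.2 CPM in dcl234 plants and held 18.4 to 20.6 CPM in Col-0, both close to 35S-RTL2.

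The miR156 family holds back SPL factors, which promote the change from the juvenile to the adult phase. Its sequence and 3 forms of the site are shown because rows with the same site differed in direction.
miR156a: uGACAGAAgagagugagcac
SPL10, SPL11 and SPL15: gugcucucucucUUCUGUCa
SPL4: cugcucucucucUUCUGUCa
SPL3: uugcuuacucucUUCUGUCa

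Of 10 SPL rows tested, 4 were called higher and 2 lower, with a median of 0.02. The share called was 60.0%, against 33.6% of all rows. SPL11 stood at 93.2 and 77.8 CPM in 35S-RTL1-Myc plants and at 48.2, 42.8 and 54.3 CPM in 35S-RTL2 plants (log2 0.82, SE 0.12). SPL10 was higher by log2 0.59, SPL4 by 0.80 and SPL6 by 0.38. SPL15, whose site is letter for letter that of SPL10 and SPL11, was lower, with 8.58 and 8.85 CPM with RTL1-Myc and 18.3, 18.6 and 17.1 CPM with RTL2 (log2 -1.05, SE 0.13, adjusted p = 2.97e-05). The row AT2G33815/SPL3 was lower at log2 -0.47, and SPL9, with the same site as SPL10, was not called at 0.02. The call of AT2G33815/SPL3 ended without 35S-RTL1-Myc replicate 2 (log2 -0.42) and that of SPL6 without 35S-RTL1-Myc replicate 1 (log2 0.32).

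AGL16, a MADS-box factor that acts in stomatal development, is a target of miR824. It is shown because its site pairs with the microRNA with 1 mismatch or G:U pair.
miR824: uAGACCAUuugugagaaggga
AGL16: ucucuucucacaaAUGGUCUa

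AGL16 stood at 49.3 and 50.1 CPM in 35S-RTL1-Myc plants, against 17.9, 15.4 and 13.9 CPM in 35S-RTL2 plants (log2 1.66, SE 0.19, adjusted p = 2.04e-05). Both RTL1-Myc libraries were above all others, and Col-0 held 13.2 to 14.3 CPM. In the same list, PHO2, the phosphate regulator targeted by miR399, was higher by log2 1.00. Of the 8 rows of this list, 4 were called higher and 2 lower (75.0% called, against 33.6% of all rows). Without 35S-RTL2 replicate 3 or 35S-RTL1-Myc replicate 2 these counts were 2 and 1, and without 35S-RTL1-Myc replicate 1 0 rows were lower.

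The other microRNA families differed among themselves. Of the miR165 and miR166 targets, which set leaf polarity, 3 of 5 rows were called higher, PHB by log2 0.64, CNA by 0.56 and HB8 by 0.54 (0.42 with the call lost without 35S-RTL1-Myc replicate 1). Of the miR160 and miR167 targets, auxin response factors, 3 of 5 were called higher, ARF10 by log2 0.47, ARF8 by 0.49 and ARF17 by 0.35 (0.29 with the call lost without 35S-RTL1-Myc replicate 2). Among growth regulating factors under miR396, GRF9 was higher by log2 1.70 and GRF1 by 1.17, while GRF7 was lower at -1.14. The call of GRF7 ended without 35S-RTL2 replicate 3 (log2 -0.79) and without either 35S-RTL1-Myc library (-1.13 and -1.15). The row GRF3/SBE2.1 was also called lower, at 104 and 193 CPM in 35S-RTL1-Myc plants and 225, 214 and 216 CPM in 35S-RTL2 plants, and that call ended without 35S-RTL1-Myc replicate 1 (log2 -0.18). Of the miR169 targets, NF-YA10 was lower at log2 -1.51 and NF-YA1 higher by 0.29, with 5 of 7 rows not called. The call of NF-YA1 ended without 35S-RTL2 replicate 1 or 35S-RTL1-Myc replicate 2 (log2 0.25 in both). ORE1, a leaf senescence factor under miR164, stood at 6.7 and 8.44 CPM with RTL1-Myc and at 19.0, 16.3 and 23.9 CPM with RTL2 (log2 -1.38, SE 0.25). Among miR319 and miR159 targets 1 row of 7 was higher (MYB33, log2 0.34) and 1 lower (AT1G53233/TCP3, log2 -0.75). The call of MYB33 ended without 35S-RTL1-Myc replicate 2 or 35S-RTL2 replicate 2 (log2 0.26 and 0.32), and that of TCP3 without 35S-RTL1-Myc replicate 1 (log2 -0.69). Of the miR393 targets only the auxin receptor TIR1 was called, at log2 0.53. The copper microRNA targets, CSD1, CSD2, CCS, LAC4, ARPN and the row LAC17/AT5G60022, had 0 calls of 6 rows with edgeR, while 1 row had an unadjusted p below 0.05 and DESeq2 called 1.

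**Figure D5:**
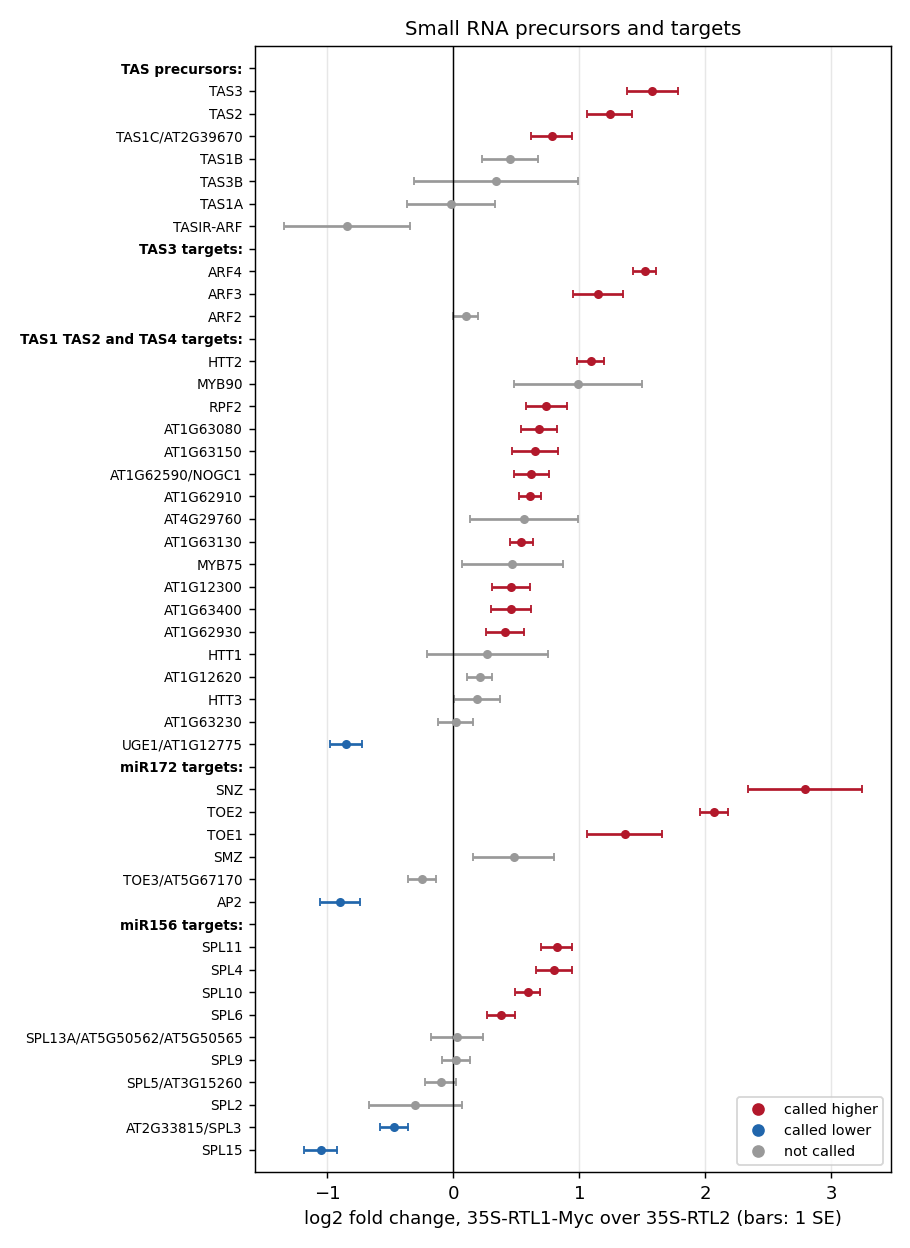
Log2 fold change, 35S-RTL1-Myc over 35S-RTL2, of TAS precursors, TAS targets and the targets of miR172 and miR156, with bars of 1 SE; colours mark rows called higher, called lower or not called. TAS3, ARF4, TOE2 and SNZ lie farthest to the right among called rows, and AP2, UGE1/AT1G12775 and SPL15 are called to the left.

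Of 23 photosynthesis rows, 5 were called lower and 0 higher, with a median log2 fold change of -0.16. The share called lower was 21.7%, against 16.7% of all rows. The share called in either direction was also 21.7%, which is below the 33.6% of all rows. RBCS2B, a small subunit of Rubisco, stood at 493 and 411 CPM in 35S-RTL1-Myc plants, against 1160, 1010 and 1210 CPM in 35S-RTL2 plants (log2 -1.32, SE 0.16, adjusted p = 3.21e-05). RBCS1B was lower at log2 -0.96, while RBCS1A was not called at 0.02. The RBCS and LHCB1 genes are close copies, and how their reads were assigned is not given in the sources used here. The antenna genes LHCB1.3 and LHCA2 were lower at log2 -0.75 and -0.48, and both calls ended without 35S-RTL1-Myc replicate 1 (log2 -0.62 and -0.42). Lower rows numbered 3 without 35S-RTL2 replicate 3 or 35S-RTL1-Myc replicate 2, and 2 without 35S-RTL1-Myc replicate 1. The whole list summed to 31600 and 29700 CPM with RTL1-Myc and to 34200, 31900 and 39500 CPM with RTL2. Both 35S-RTL1-Myc sums lay below all 35S-RTL2 sums, but the nearest, 31600 and 31900 CPM, were close. The Col-0 libraries summed to 43300, 38600 and 40500 CPM. All 3 lay above both 35S-RTL1-Myc libraries and above 35S-RTL2 replicates 1 and 2.

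In chlorophyll synthesis 2 rows of 13 were called higher and 2 lower, which at 30.8% is near the share of all rows. PORA, the protochlorophyllide reductase of dark-grown seedlings, stood at 0.29 and 0.579 CPM in 35S-RTL1-Myc plants, against 13.6, 10.5 and 17.4 CPM in 35S-RTL2 plants (log2 -4.97, SE 0.64, adjusted p = 4.84e-05). Col-0 held 20.3 to 29.4 CPM of PORA and dcl234 plants averaged 44.0 CPM. Its relative PORB stood at 67.2 and 248 CPM with RTL1-Myc and at 618, 501 and 741 CPM with RTL2 (log2 -1.98, with -1.32 without 35S-RTL1-Myc replicate 1 and -3.19 without replicate 2). PORC, the third reductase, was not called at log2 -0.02. CAO, which makes chlorophyll b, was higher by log2 0.89, a call that ended without 35S-RTL1-Myc replicate 1 (log2 0.72, adjusted p = 0.0595). GUN4, a chelatase regulator, was higher by log2 0.42, and its call ended without each library except 35S-RTL2 replicate 3 (log2 0.35 to 0.44). The count of higher rows was therefore 0 without 35S-RTL1-Myc replicate 1.

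Starch turnover genes, many of which follow the clock, were lower in 5 of 11 rows and higher in 2. The share called was 63.6%, against 33.6% of all rows. GWD1, which phosphorylates starch before it is broken down, stood at 109 and 205 CPM in 35S-RTL1-Myc plants and at 317, 295 and 350 CPM in 35S-RTL2 plants (log2 -1.03). The related kinase PWD and the debranching enzyme ISA3 were lower at log2 -0.68 and -0.86. BAM1, a beta-amylase, was higher by 1.31. Without 35S-RTL1-Myc replicate 1 the count of lower rows was 2 and PWD was not called (log2 -0.4), and without replicate 2 ISA3 stood at -1.53. The count of higher rows was 1 without any library except 35S-RTL2 replicate 2.

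Of 21 rows of salicylic acid defence genes, 7 were called higher and 1 lower, which at 38.1% is near the 33.6% of all rows. PBS3, which acts in salicylic acid synthesis, stood at 71.9 and 58.4 CPM in 35S-RTL1-Myc plants and at 18.3, 18.0 and 21.6 CPM in 35S-RTL2 plants (log2 1.76, SE 0.23, adjusted p = 5.55e-05). AIG1, induced by avirulent bacteria, was higher by log2 3.06, SARD1, a regulator of the pathway, by 2.16, and PAD4, a defence signalling protein, by 1.2. EDS1, the partner of PAD4, was lower at log2 -0.63 (-0.47 with the call lost without 35S-RTL1-Myc replicate 2). The pathogenesis-related genes PR1, PR2 and PR5 were called at log2 3.82, 2.90 and 1.19, and these calls rest on 35S-RTL1-Myc replicate 2. PR1 stood at 0.145 and 4.97 CPM in 35S-RTL1-Myc plants and at 0.241, 0 and 0.325 CPM in 35S-RTL2 plants. PR2 stood at 2.71 and 38.2 CPM with RTL1-Myc and at 2.16, 1.82 and 4.23 CPM with RTL2. The groups overlapped for PR1 and PR2. Without that replicate the values were log2 -0.28 (adjusted p = 0.938) for PR1, 0.0 (adjusted p = 1.0) for PR2 and 0.28 (adjusted p = 0.502) for PR5. The calls of PR1 and PR2 also ended without 35S-RTL2 replicate 1 (log2 4.03 and 2.77) or replicate 2 (3.15 and 2.66).

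Jasmonate genes were called in 7 of 27 rows, which at 25.9% is below the share of all rows. The 1 lower row, JAZ2 at log2 -0.29, was not called in any fit that left out a library (-0.24 to -0.33), and the list had 3 lower rows without 35S-RTL1-Myc replicate 1. MYC2, the master transcription factor, stood at 120 and 87.2 CPM in 35S-RTL1-Myc plants and at 48.8, 53.8 and 59.5 CPM in 35S-RTL2 plants (log2 0.94). The synthesis enzymes AOC1 and AOS were higher by log2 1.73 and 0.80. PDF1.2, a defensin, stood at 0.724 and 4.53 CPM with RTL1-Myc and at 0.0962, 0.107 and 0.163 CPM with RTL2 (log2 4.37, with 2.53 without 35S-RTL1-Myc replicate 2 and 5.15 without replicate 1). PDF1.2b had 0 counts in the 35S-RTL2 libraries and was at least 18.4-fold higher, and it fell below the filter without 35S-RTL1-Myc replicate 2. PDF1.3 stood at 0.145 and 5.0 CPM with RTL1-Myc, with 3 counts in the 35S-RTL2 libraries, and its call at log2 5.83 ended without replicate 2 (log2 1.73, adjusted p = 0.353). These defensins are close copies of each other.

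Other hormone and stress lists moved in part. In both the auxin list and the cytokinin list 60.0% of rows tested were called, against 33.6% of all rows. Of 15 auxin response rows, 7 were called higher and 2 lower. GH3.1, which joins auxin to amino acids, stood at 4.52 and 3.91 CPM in 35S-RTL1-Myc plants and at 0.385, 0.25 and 0.203 CPM in 35S-RTL2 plants (log2 3.92), while its relative GH3.3 was lower at log2 -1.77. The auxin repressor genes IAA17 and IAA1 were higher by 1.37 and 1.28. Of 10 cytokinin response regulators tested, 4 were higher and 2 lower, among them ARR8 (log2 1.14), ARR9 (1.03) and ARR16 (-1.42). Without 35S-RTL1-Myc replicate 1 the count of higher rows was 2. ARR22 stood at 0.253 and 0.034 CPM with RTL1-Myc and at 6.01, 4.47 and 3.09 CPM with RTL2 (log2 -4.95, with -6.86 without 35S-RTL1-Myc replicate 1 and -4.12 without replicate 2).

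Of 16 cold, drought and abscisic acid rows, 7 were higher and 1 lower (50.0% called, against 33.6% of all rows). RD20, a drought-induced lipid droplet protein, stood at 511 and 434 CPM in 35S-RTL1-Myc plants and at 137, 112 and 139 CPM in 35S-RTL2 plants (log2 1.87, SE 0.20). P5CS1, the rate-limiting enzyme of proline synthesis, was higher by log2 2.21 and NCED3, that of abscisic acid synthesis, by 1.67 (1.24 and adjusted p = 0.0502 without 35S-RTL1-Myc replicate 1). The counts of higher and lower rows were 4 and 0 without 35S-RTL2 replicate 1 or 35S-RTL1-Myc replicate 1, and 5 and 2 without 35S-RTL1-Myc replicate 2. Of 18 flavonoid rows (38.9% called), 7 were higher and 0 lower, with MYB11, a flavonol regulator, at log2 1.42, CHI at 1.33 and the rows F3H/AT3G51238 and AT5G13940/CHS at 1.17 and 1.1. Without 35S-RTL1-Myc replicate 1 or 35S-RTL2 replicate 2, 4 of the flavonoid rows were called higher.

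Among mineral and heat lists, 50.0% of iron deficiency rows, 54.5% of phosphate starvation rows and 25.0% of heat shock rows were called, against 33.6% of all rows. Of 8 iron deficiency rows, 4 were higher. The iron transporter IRT1 stood at 30 and 20.9 CPM with RTL1-Myc and 11.3, 9.15 and 9.92 CPM with RTL2 (log2 1.33). The row FER1/AT5G01595, with a ferritin gene, was also higher, at 655 and 678 CPM with RTL1-Myc and 291, 283 and 370 CPM with RTL2 (log2 1.08). PYE was higher by log2 0.61 and NAS4 by 2.13 (1.89 with the call lost without 35S-RTL1-Myc replicate 2). The list therefore did not give a direction of iron status. Of 11 phosphate starvation rows, 3 were higher and 3 lower. The galactolipid synthases MGD3 and MGD2 were lower at log2 -1.88 and -1.09, while the row AT3G17800/PAP17 and SQD1 were higher by 0.70 and 0.62. Of 8 heat shock rows, HSP18.2 (log2 1.74) and the row HSP101/AT1G74300 (log2 0.91) were higher. Nucleolar genes of ribosome biogenesis were lower in 4 of 6 rows and higher in 0 (66.7% called). NUC1, the main nucleolin, stood at 432 and 533 CPM in 35S-RTL1-Myc plants and at 731, 930 and 868 CPM in 35S-RTL2 plants (log2 -0.80, SE 0.15). The row U60.2F/FIB2 was lower at log2 -0.92, CBF5 at -0.54 and NOP56 at -0.49 (-0.44 with the call lost without 35S-RTL1-Myc replicate 1). FIB2, CBF5 and NOP56 are core proteins of small nucleolar RNA particles.

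The rows with the largest differences, beyond the overexpressed genes and the glucosinolate genes, include few of these pathways. Among rises, DDF1, a CBF-like stress factor, stood at 6.08 and 0.919 CPM in 35S-RTL1-Myc plants and at 0.0, 0.0357 and 0.0406 CPM in 35S-RTL2 plants (log2 6.78, with 4.86 without 35S-RTL1-Myc replicate 1 and 7.58 without replicate 2). These are 195 counts with RTL1-Myc and 2 with RTL2, a ratio of 126-fold with a 95% exact (Clopper-Pearson) interval of 34.3 to 1040, and such intervals cover counting error only. AK3, an aspartate kinase of the pathway that leads to methionine, stood at 22.0 and 36.4 CPM with RTL1-Myc and at 0.673, 0.25 and 0.894 CPM with RTL2 (log2 5.61). AT1G62190 stood at 49.3 and 52.0 CPM with RTL1-Myc and at 0.337, 1.29 and 1.22 CPM with RTL2 (log2 5.69). The remaining rises named by size were AT1G71200 at log2 6.42 (100-fold, interval 27.3 to 836) and AT5G37970 at 5.55, the last at 6.47 without 35S-RTL2 replicate 1.

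Among falls, AT1G62760 stood at 0.0362 and 0.238 CPM in 35S-RTL1-Myc plants, against 13.6, 15.7 and 22.1 CPM in 35S-RTL2 plants (log2 -6.89, with -6.14 without 35S-RTL1-Myc replicate 1 and -8.7 without replicate 2). AT3G19940 stood at 0.0362 and 0.034 CPM with RTL1-Myc and at 3.08, 3.39 and 2.4 CPM with RTL2 (log2 -6.22). HDG3, a homeodomain factor, stood at 0.0362 and 0.034 CPM with RTL1-Myc and at 3.7, 1.25 and 1.5 CPM with RTL2 (log2 -5.74, with -5.12 without 35S-RTL2 replicate 1). With 2 counts each in the 35S-RTL1-Myc libraries, AT3G19940 was 84.7-fold lower (95% interval 23.2 to 704) and HDG3 57.9-fold lower (15.7 to 482), and fitted folds of such rows depend on the prior count. AT2G31540 and AT2G30310 were lower at log2 -5.83 (64.1-fold, interval 17.5 to 534) and -4.90 (32.9-fold, 11 to 162). AT1G61688 was lower at log2 -5.98 (68-fold, interval 18.5 to 566), with -9.04 without 35S-RTL1-Myc replicate 1, -5.02 without replicate 2 and -5.22 without 35S-RTL2 replicate 1. The row AT1G63057/AT1G63055 was lower at log2 -5.22, with -5.83 without 35S-RTL1-Myc replicate 1 and -4.57 without 35S-RTL2 replicate 1. AT3G29570 at log2 -5.14 (37-fold, interval 12.4 to 182) lost its call without 35S-RTL1-Myc replicate 2 (log2 -4.15) and stood at -8.73 without replicate 1. LCR73, a defensin-like gene, at log2 -4.92 lost its call without either 35S-RTL1-Myc library (log2 -4.4 and -5.77).

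Several of these lower rows were also low in dcl234 plants. The dcl234 means were 0.186 CPM for AT3G19940, 0.112 CPM for AT1G61688, 0.102 CPM for HDG3, 0.0562 CPM for AT1G63057/AT1G63055, 0.0578 CPM for AT3G29570 and 0.351 CPM for ARR22. Col-0 held 2.19 to 2.59 CPM of AT3G19940, 0.906 to 1.92 CPM of HDG3 and 3.06 to 4.85 CPM of ARR22, near the 35S-RTL2 libraries. PORA and AT1G62760 did not share this, with dcl234 means of 44.0 and 7.23 CPM. These levels are given side by side, and 35S-RTL1-Myc was not tested against dcl234.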

How the data were processed

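The authors deposited raw counts, in whole numbers, as a table for each of the 18 libraries. Per the submitters' processing notes the genome build was TAIR9. The aligner, the counter and whether strand was used were not given in the sources used here. All hold the same 31362 rows, of which 1897 join overlapping genes. Of 33378 genes, 32701 were matched by locus to RefSeq TAIR10.1, which gave symbols and sequences, and no coordinates are printed because the builds differ.

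Groups follow the sample titles. Rows were filtered with filterByExpr, scaled by TMM and fitted with edgeR 4.0.16 (glmQLFit, glmQLFTest) in R 4.3.3, with 1 coefficient for each group and every library of the series in the fit. The biological coefficient of variation was 15.1%. DESeq2 1.42.0, other scalings, filters and subsets were alternatives. No pair of replicates agreed within sampling noise (in every group, chi-square divided by its degrees of freedom was 4.91 or more), so none was taken for 1 library deposited in duplicate.

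The members, gene lists and tests were chosen with earlier results of these data known. Named genes are RTL1, RTL2 and RTL3, the 12 highest and 12 lowest fold changes among called rows with a mean of at least 1 CPM and groups that do not overlap, and up to 4 called members with the smallest adjusted p of each list. Other list members named were chosen after their values were seen.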

Additional observations from a re-analysis of the deposited data

How the results depend on the processing

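The 3617 higher and 3564 lower calls were 3738 and 3844 with DESeq2, 3624 and 3572 with DESeq2 size factors in edgeR, 3320 and 3408 with no filter on low counts, and 3305 and 3500 with a minimum of 1 CPM. The 5 libraries fitted alone gave 2771 and 2928, the 8 libraries with Col-0 gave 3815 and 3763, and a term for the file-name number gave 3037 and 3019. A minimum fold of 1.5 left 990 higher and 1208 lower. Leaving out 1 library gave 2465 to 3540 higher and 2160 to 3635 lower. Every row called both in the main fit and in an alternative kept its direction. The groups share only the replicate numbers 1 and 2. Deviations of same-numbered libraries correlated at 0.194 and 0.0243. With 2 35S-RTL1-Myc libraries the deviations of one mirror those of the other, so this check cannot decide whether the numbers pair the samples. The labels do not say that a number is shared material, and the main fit did not pair them. The fit with the replicate block called 4038 higher and 4038 lower. Of the 153 named rows, 0 changed direction under any alternative, and 58 lost their call under the minimum fold, 10 in the 5 libraries alone, 5 with the file-name number and 5 to 22 when 1 library was left out. PR1, outside that rule, stood at log2 -0.28 without 35S-RTL1-Myc replicate 2. Shifts in the median of all rows were at most 0.016. With 2 libraries of 35S-RTL1-Myc, a difference carried by 1 of them cannot be checked against a further replicate.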

Other observations

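MicroRNA precursor rows were tested in 42 cases, and 6 were called higher and 3 lower in 35S-RTL1-Myc than in 35S-RTL2 plants (21.4%, against 33.6% of all rows). These genes were named after their values were seen. MIR163 stood at 20.2 and 18.0 CPM in 35S-RTL1-Myc plants and at 3.37, 2.72 and 3.13 CPM in 35S-RTL2 plants (log2 2.64, SE 0.17, edgeR adjusted p = 1.63e-07). MIR162a, whose microRNA targets DCL1, stood at 3.91 and 3.64 CPM with RTL1-Myc and at 12.1, 14.3 and 11.7 CPM with RTL2 (log2 -1.75, SE 0.18). The groups did not overlap for either row, as in nearly all rows called. MIR397a and MIR857, precursors of copper microRNAs, had 66 and 39 counts in the 35S-RTL1-Myc libraries and 0 in the 35S-RTL2 libraries, so they were at least 28.3-fold and 16.7-fold higher, taking 3 counts over the group as the floor. MIR447b was higher by log2 1.29, MIR319b by 1.22 and MIR858a by 2.04, and MIR822 and MIR775 were lower at -2.08 and -1.58. The call of MIR775 ended without 35S-RTL1-Myc replicate 2 (log2 -1.45), where MIR822 stood at -2.71. Of the 5 fits that left out 1 library, MIR319b was called in that without 35S-RTL2 replicate 2 (1.07 to 1.25 in the other 4), and MIR858a in none (1.94 to 2.35 in 4, not tested in the last, without 35S-RTL1-Myc replicate 1). The level of a precursor does not give that of its mature microRNA.

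Among other classes, protein-coding rows were called in 33.9% of cases and rows that join genes in 34.2%. Of 399 pseudogene rows tested, 78 were higher and 47 lower (31.3% called).

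In 176 of the 6516 called rows with a mean of at least 1 CPM, the 35S-RTL1-Myc libraries differed by more than 2-fold, and in 126 of these replicate 2 was the higher one.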
